A study of Homo sapiens
Mus musculus with 16 samples.

Results

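The vehicle group comprised 4 of the 16 xenograft tumours of the series, chosen by their label alone, and is described here at baseline, without any drug. Each tumour grew from 2 M MDA-MB-231 cells, an established human triple-negative breast cancer line, injected subcutaneously in 50 µl of an equal mix of PBS and Matrigel into the mammary fat pad of a balb/c nude mouse. Tumours were excised on day 50, the mice having received intraperitoneal vehicle only. The labels name neither the content of the vehicle nor the age of the mice. The other 12 tumours, used only for comparison, received nab-paclitaxel (labelled Abraxane, 30 mg/kg), phenelzine (40 mg/kg) or both, from day 15, in groups of 4.

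A xenograft of this kind holds RNA of 2 species. The cancer cells carry human transcripts, and every vessel, fibroblast, fat cell and leukocyte that the tumour recruits or grows into carries mouse transcripts. Nude mice lack a functional thymus and so most mature T cells, but keep B cells, NK cells and myeloid cells, so their tumours still have an immune stroma. The mammary fat pad around the graft itself contains adipose tissue, ducts, nerves, a lymph node and nearby muscle and skin. Pieces of these can be excised together with a tumour. The counts of the human matrix are taken to stand for tumour cells and those of the mouse matrix for host cells. Whether any read was placed with the wrong species was not tested.

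The 58051 human and 48795 mouse gene IDs of the files are not paired with symbols, and 0 human and 0 mouse IDs were matched to a symbol. Which genes with known roles are made mainly by tumour or by host was therefore not analysed here, nor were the labelled cell line and tissue checked against markers. Genes are described by their rank in CPM, the counts of a gene scaled to a common total within each matrix, and by the tumours they were high in. CPM is not divided by gene length, so a rank orders genes by their share of counts and not by molecules. Only 4 IDs are printed, chosen after their values were seen: the highest human gene, the highest mouse gene, and 1 mouse gene each for the 2 host patterns below.

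Human totals were 32.6, 23.7, 27.3 and 33.5 M counts in vehicle 1 to 4. Mouse totals were 5.21, 14.4, 6.38 and 5.28 M counts, so that human counts outnumbered mouse counts 6.26-fold, 1.64-fold, 4.27-fold and 6.34-fold. Vehicle 2 had the most mouse and the fewest human counts of the 4 tumours. At this depth a count of 0 allows up to 0.127 CPM for a human gene, in vehicle 2, and up to 0.576 CPM for a mouse gene, in vehicle 1. In bulk tissue, more cells of a type and more RNA per cell cannot be told apart.

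The 4 xenografts differed far less in their human than in their mouse profiles. Among 9983 human genes with a mean of at least 10 CPM, the median ratio of the highest to the lowest tumour was 1.28-fold, and 131 genes (1.31%) spanned 4-fold or more. Among 10539 mouse genes the median ratio was 1.79-fold, and 1197 genes (11.4%) spanned 4-fold or more, 410 of them at least 10-fold. A 2-fold range was passed by 6.48% of human and 40.2% of mouse genes. The mouse percentage at 4-fold fell most without vehicle 2, to 4.58%, against 0.912% of human genes. Without vehicle 1, 3 or 4 it was 8.88%, 10.3% or 7.99%. Fewer tumours can only narrow the range of a gene, so a fall is partly by construction. The human value was lowest, 0.832%, without vehicle 3. The mouse matrix had fewer counts in each tumour, so at the same CPM counting error widens its ranges more. Among genes with a mean of at least 100 CPM, 0.499% of human and 10.2% of mouse genes spanned 4-fold or more.

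**Figure D1:**
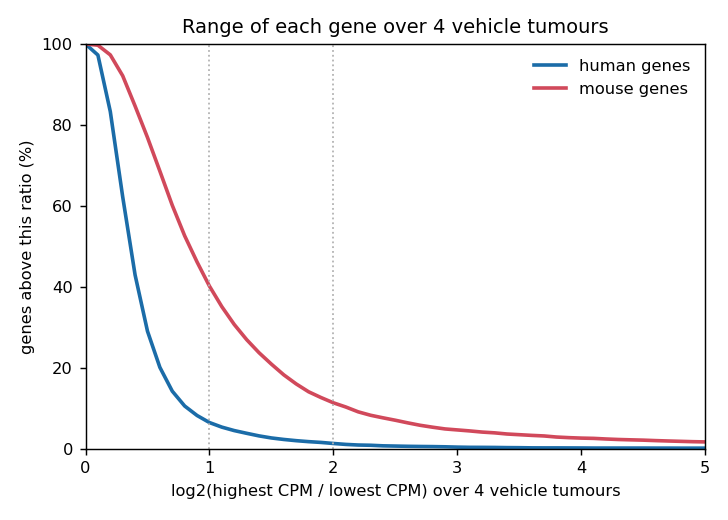
Percentage of genes (vertical axis) whose log2 ratio of highest to lowest CPM over the 4 vehicle tumours exceeds the value on the horizontal axis, for 9983 human and 10539 mouse genes with a mean of at least 10 CPM. The dotted lines mark 2-fold and 4-fold, genes at 0 in a tumour count as above every ratio, and the mouse curve lies above the human one, at 40.2% against 6.48% for 2-fold.

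The biological coefficient of variation (BCV) measures how far tumours differ beyond counting error, as a share of a gene's mean. Estimated with edgeR over all filtered genes, the common BCV of the vehicle group was 0.212 for human genes (15035 genes) and 0.382 for mouse genes (12310 genes). With 1 tumour left out at a time it ran from 0.206 to 0.222 for human genes and from 0.306 to 0.420 for mouse genes. These ranges did not overlap, but the left-out sets share tumours, so the ranges do not measure the uncertainty of either value. The mouse value was lowest, 0.306, without vehicle 2. A gene-level BCV of at least 0.5 was found for 1.53% of human and 9.44% of mouse genes. In the other groups the common BCV of human and mouse genes was 0.222 and 0.245 with phenelzine, 0.334 and 0.303 with nab-paclitaxel and 0.376 and 0.366 with both drugs. These differences between groups were not tested.

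Compared tumour by tumour, the human profiles had Spearman correlations of 0.960 to 0.966 over the 6 pairs, with median absolute log2 differences of 0.15 to 0.20. These correlations run across genes, which are not independent replicates. The mouse profiles of vehicle 1 and vehicle 3 were the closest, at 0.922 and a median difference of 0.26. Vehicle 4 correlated with those tumours at 0.892 and 0.886. Vehicle 2 was the most distant, at 0.783 from vehicle 1, 0.833 from vehicle 3 and 0.758 from vehicle 4, with median log2 differences of 0.50, 0.40 and 0.54. Between vehicle 2 and vehicle 4, 24.98% of mouse genes differed by 2-fold or more, against 2.26% of human genes in the same 2 tumours.

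The highest human gene was ENSG00000026025, with 14172, 12114, 15145 and 11828 CPM in vehicle 1 to 4, a mean of 13315 ± 1606 CPM (SD, n = 4). All 4 tumours lay close together, and the next gene by rank had a mean of 5473 ± 717 CPM, so that the first exceeded it 2.43-fold. In the 12 treated libraries the leading gene ranged from 7287 to 14469 CPM. Behind it, ranks 3, 5 and 6 were equally even, with means of 5373 ± 480, 5137 ± 649 and 4770 ± 330 CPM. Of the 20 highest human genes, 18 had a count in every vehicle tumour. Their ratio of highest to lowest tumour had a median of 1.31 and a range of 1.14 to 1.66, and 0 of the 18 reached 2-fold. The 20 highest genes of each single tumour had 14 in common and made up 27 genes in all.

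The other 2 of the 20 had counts in some vehicle tumours and were listed at 0 in the rest. The human gene ranked 4 had 20936 CPM, or 495800 counts, in vehicle 2 and was listed at 0 in the other 3 vehicle tumours. Across the series it had a count in 5 of 16 libraries. Its mean of 5234 CPM therefore describes no single tumour. The human gene ranked 14 had 4839 CPM in vehicle 1 and 5782 CPM in vehicle 4 and was listed at 0 in vehicle 2 and vehicle 3. A further 2 human genes showed the opposite pattern, at 0 in vehicle 1 and vehicle 4. They stood at 1763 and 1867 CPM in vehicle 2 and at 3013 and 2478 CPM in vehicle 3. A 0 in 1 tumour beside 10000 counts or more in another occurred in these 4 human genes and in 0 mouse genes. How reads were assigned to them was not tested. At a limit of 1000 counts, 10 human and 20 mouse genes stood at 0 in 1 vehicle tumour and at that level in another, and 19 of the 20 mouse genes had their highest count in vehicle 2, the deepest mouse library. The 10 human genes held 0.504%, 2.48%, 0.579% and 0.581% of the human counts of vehicle 1 to 4.

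The highest mouse gene, ENSMUSG00000060802, had 9757, 4811, 7862 and 4748 CPM in vehicle 1 to 4, a mean of 6794 ± 2452 CPM (SD, n = 4). Vehicle 1 and vehicle 3 were high and vehicle 2 and vehicle 4 low, 2.06-fold between the extremes. No mouse gene led the way the first human gene did, since ranks 2 to 6 had means from 5496 to 6295 CPM. Of the 20 highest mouse genes, 16 spanned 2-fold or more, with a median ratio of 3.05 and a range of 1.10 to 13.2. Of these 20 genes, 11 were highest in vehicle 4 and 13 were lowest in vehicle 2, while vehicle 2 was highest for 1. Ranking by the mean of these same tumours favours genes that 1 tumour raises. Among the 1197 mouse genes spanning 4-fold or more, the order was the other way. There, 617 genes were highest in vehicle 2 and 193 in vehicle 4, while 279 were lowest in vehicle 2 and 481 in vehicle 4. The 20 highest mouse genes of each tumour had 10 in common and made up 36 in all.

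A few abundant mouse genes were nevertheless even. The gene ranked 11 had 3467, 3504, 3389 and 3712 CPM in vehicle 1 to 4, a ratio of 1.10. The gene ranked 4 had 6634, 6500, 6413 and 5319 CPM and the gene ranked 17 had 3089, 3337, 2838 and 2568 CPM. The largest ratio among these 3 genes was 1.30, against 3.71 for the gene ranked 2 and 4.36 for the gene ranked 5.

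**Figure D2:**
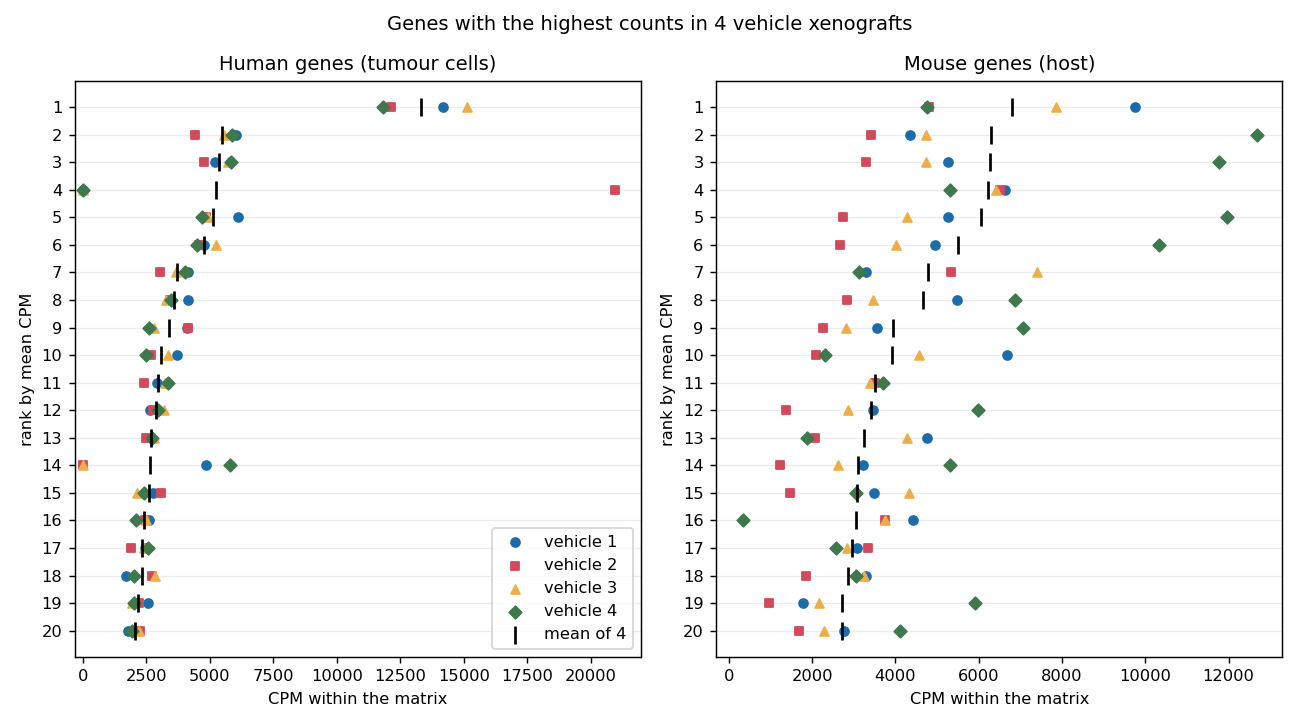
CPM within each matrix (horizontal axis) of the 20 highest human and the 20 highest mouse genes by mean rank (vertical axis) in the 4 vehicle tumours, 1 symbol per tumour, with a bar at the mean. The human symbols cluster except at ranks 4 and 14, which are listed at 0 in some tumours, and the mouse symbols spread, with vehicle 4 to the right at ranks 2, 3, 5 and 6.

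To describe how host composition differed, genes were counted in which 1 tumour stood at least 4-fold above each of the other 3 and at 10 CPM or more. With 1 tumour on 1 side there is no test, and the percentages are of 11623 mouse or 10447 human genes that reached 10 CPM in any vehicle tumour. Vehicle 2 stood above in 336 mouse genes (2.89%), vehicle 3 in 42 (0.361%), vehicle 1 in 22 (0.189%) and vehicle 4 in 16 (0.138%). In the human matrix the same counts were 6 (0.0574%), 5 (0.0479%), 4 (0.0383%) and 4 (0.0383%) for vehicle 1 to 4. In the opposite direction, vehicle 4 stood at least 4-fold below the others in 68 mouse genes (0.585%), vehicle 1 in 38 (0.327%), vehicle 2 in 33 (0.284%) and vehicle 3 in 7 (0.0602%). For human genes these counts were 10 (0.0957%), 8 (0.0766%), 8 (0.0766%) and 9 (0.0861%) for vehicle 1 to 4. Among mouse genes, vehicle 2 thus had the most genes above and vehicle 4 the most below. At a 2-fold limit the mouse counts above were 89 (0.766%), 960 (8.26%), 142 (1.22%) and 229 (1.97%) for vehicle 1 to 4.

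**Figure D3:**
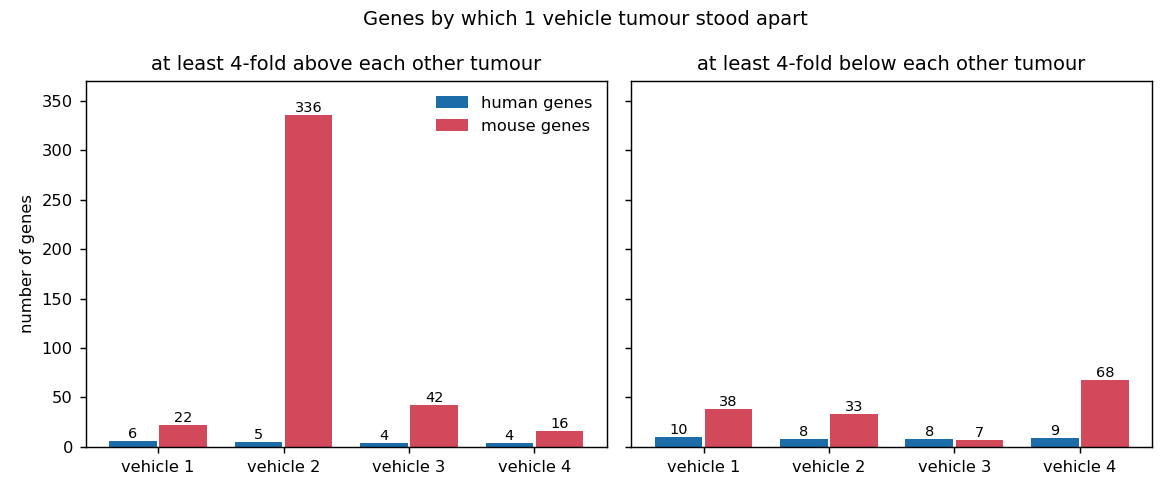
Number of human and mouse genes (bars, vertical axis) by which each vehicle tumour (horizontal axis) stood at least 4-fold above, left, or below, right, each of the other 3 vehicle tumours. The 336 mouse genes of vehicle 2 exceed every other bar, and the human bars lie between 4 and 10.

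The 336 mouse genes of vehicle 2 made up 4.80% of its mouse counts, a sum of 47978 CPM against 2128 to 4460 CPM in the other 3 vehicle tumours. Of these genes, 104 stood at 100 CPM or more in vehicle 2, and 63 were under 1 CPM in each of the others. The highest of them, ENSMUSG00000076609, had 11.1, 5294, 779 and 40.6 CPM in vehicle 1 to 4, so vehicle 2 was far above and vehicle 3 intermediate. The second had 88.7, 4776, 242 and 50.8 CPM. The third had 4.03, 2353, 16.6 and 3.41 CPM, and the eighth had 0.576, 753, 0.313 and 0.569 CPM. The first and second genes were counted in all 4 tumours, and the eighth was at or under the limit of a 0 count in 3 of them. The mouse share of all counts in vehicle 2 was 37.8% with them and 36.7% without them, and 34.9% without the 960 genes of the 2-fold limit.

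Among mouse genes with a mean of at least 50 CPM, 14 of the 15 with the highest BCV peaked in vehicle 2, with values of 1.22 to 1.68. A gene can pass this limit through 1 tumour alone, as 1 of them did at 2.11, 187, 9.56 and 3.22 CPM. The count of 14 is therefore partly by construction. Of the 1197 mouse genes spanning 4-fold or more, 617 were highest in vehicle 2. The other of the 15, with a BCV of 1.55, stood at 1635 CPM in vehicle 3 and at 2.11, 31.6 and 12.7 CPM in vehicle 1, 2 and 4. How reads were assigned to this gene was not tested. In the human matrix the 15 most variable genes had BCVs of only 0.479 to 0.803 and peaked in vehicle 1, 2, 3 and 4 for 1, 5, 3 and 6 genes. The most variable human gene had 13.7, 16.1, 17.9 and 164 CPM. The human gene ranked 5 by BCV had 1417, 149, 1333 and 1677 CPM, lowest in vehicle 2, and 813 to 2424 CPM in the 12 treated libraries.

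The treated libraries, which the choice of the 336 genes did not use, held their sum at 2255 to 8667 CPM in 11 of 12 and at 19002 CPM in combination 1. Combination 1 was the highest treated library for 112 of the 336 genes (33.3%), against 7.49% of all 11623 mouse genes. Combination 2 was the highest for 91 (27.1%), against 24.8% of all. No treated library reached the sum of vehicle 2. These genes were chosen for being high in vehicle 2, which by itself favours a high sum there. The gene ENSMUSG00000076609 carried much of the sum in combination 1, at 11192 CPM there, above vehicle 2, and at 2.35 to 2289 CPM in the other treated libraries. Without it the sum was 42684 CPM in vehicle 2, 7810 CPM in combination 1 and 2248 to 6379 CPM in the other treated libraries. The third gene of the set was also highest among treated libraries in combination 1, at 114 CPM, far under its 2353 CPM in vehicle 2. In all, 26 of the 336 genes (7.74%) stood higher in some treated library than in vehicle 2. For the genes at least 4-fold above in vehicle 1, 3 and 4, the like counts were 2 of 22 (9.09%), 35 of 42 (83.3%) and 8 of 16 (50%). The share over all mouse genes was not computed, and each set was chosen for being high in the tumour it is compared with. These percentages therefore do not measure how particular a set is to its tumour.

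Vehicle 4 stood apart from the other vehicle tumours in several of the most abundant mouse genes. The mouse genes ranked 2, 3, 5 and 6 had 12677, 11766, 11960 and 10322 CPM there, against 2678 to 5274 CPM in the other 3 tumours. Their highest values among treated libraries were 16940, 11085, 12356.5 and 10711 CPM, above vehicle 4 for the genes ranked 2, 5 and 6. The gene ranked 2, ENSMUSG00000026043, had 4345, 3413, 4746 and 12677 CPM in vehicle 1 to 4, a mean of 6295 ± 4291 CPM (SD, n = 4). Among the vehicle tumours, vehicle 4 alone was high, and the other 3 lay within 1.5-fold of each other. The gene ranked 19 followed the same order of extremes, with 1792, 971, 2174 and 5921 CPM. The 229 mouse genes in which vehicle 4 was at least 2-fold above the others held 10.5% of its mouse counts, 104924 CPM against 27851 to 40793 CPM. In the treated libraries the same genes summed to 17452 to 88849 CPM, lowest in combination 2 and combination 1 and highest in phenelzine 4. At this 2-fold limit vehicle 4 lay above all 12 treated libraries, but at the 4-fold limit it did not. The 16 genes of the 4-fold limit summed to 650.9 CPM in vehicle 4, to 73.1 to 93.8 CPM in the other vehicle tumours and to 76.1 to 693 CPM in the treated libraries, highest in nab-paclitaxel 3. These genes were chosen for being high in vehicle 4.

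The same tumour was low in another group of abundant genes. The mouse gene ranked 16 had 4413, 3743, 3748 and 333 CPM in vehicle 1 to 4, and 1257 to 6387 CPM in the treated libraries. The next of the 68 genes low in vehicle 4 had 2077, 1422, 1533 and 160 CPM. The mouse gene ranked 22 also belonged to them, at 1330, 5537, 2625 and 288 CPM. For this gene all 4 tumours differed, with vehicle 2 the highest. Together the 68 genes summed to 1521 CPM in vehicle 4 and to 14425 to 19728 CPM in the other 3. They were chosen for being low in vehicle 4, which by itself fixes a lower sum there. Their sums in the treated libraries, which the choice did not use, ran from 3769 CPM in phenelzine 4 to 24957 CPM in combination 1.

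Vehicle 1 and vehicle 3 also had host genes of their own at the 4-fold limit. The 22 mouse genes high in vehicle 1 summed to 851 CPM, against 27.3 to 40.1 CPM in the other vehicle tumours and 17.5 to 162 CPM in the treated ones, and 10 of them were under 1 CPM in each other vehicle tumour. The third of them had 69.7 CPM in vehicle 1 and 0, 0.470 and 0 CPM in vehicle 2 to 4. The 38 genes low in vehicle 1 summed to 207 CPM there and to 2415 to 9449 CPM in the others. Their sums in the treated libraries were 1788 to 16115 CPM. The first of the 38 had 49.7, 1637, 2489 and 561 CPM, and ranged from 102 to 6058 CPM in the treated libraries. The 42 genes high in vehicle 3 summed to 3855 CPM, against 54.9, 395 and 260 CPM in vehicle 1, 2 and 4. The leading gene alone gave 1635 CPM of this, and without it the sum was 2221 CPM, against 52.8, 363 and 247 CPM. In the treated libraries they reached 4949 CPM in combination 2, which was the highest treated library for 28 of the 42 (66.7%), against 24.8% of all mouse genes. The 22 and the 42 genes were chosen for being high in their tumour, and the 38 for being low in vehicle 1. The first of the 7 genes low in vehicle 3 ran against the leading gene of the 42, at 979, 1408, 89.5 and 1152 CPM in vehicle 1 to 4. In phenelzine 1, 3 and 4 it had 37.1, 34.4 and 31.5 CPM, where the leading gene had 653, 1218 and 724 CPM. Both were low in nab-paclitaxel 1, combination 1 and combination 2. How reads were assigned to these genes was not tested.

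**Figure D4:**
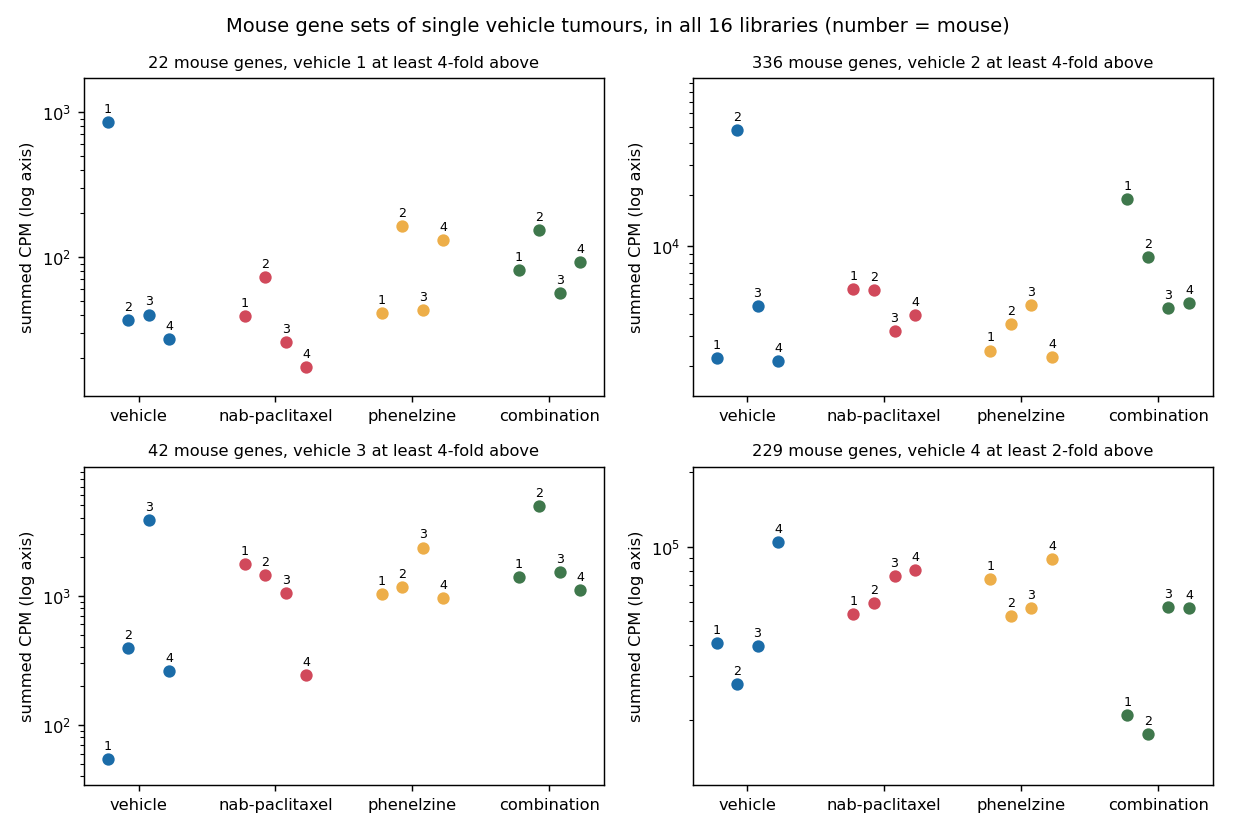
Summed CPM within the mouse matrix (vertical log axis) of 4 gene groups, each chosen as high in 1 vehicle tumour, in all 16 libraries by treatment (horizontal axis), with the mouse number above each point. The vehicle 2 group stands at 47978 CPM in vehicle 2 and next highest at 19002 CPM in combination 1, and the vehicle 4 group, shown at the 2-fold limit where the others are at 4-fold, stands at 104924 CPM in vehicle 4.

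The breadth of each compartment was also compared. The 100 highest human genes held 18.1%, 18.6%, 17.6% and 17.0% of human counts in vehicle 1 to 4, a mean of 17.8% ± 0.712 (SD, n = 4). The 100 highest mouse genes held 21.4%, 15.5%, 19.3% and 23.7% of mouse counts, a mean of 19.99% ± 3.47. Mouse counts were more concentrated in 3 of 4 tumours and less so in vehicle 2. The difference of 2.17 percentage points did not pass a two-sided exact sign-flip test over tumours (p = 0.375, adjusted p = 0.562 over 6 such tests), a design whose smallest p is 0.125. In the 12 treated libraries the mouse percentage was higher in 11, by 3.93 points on average (exact sign-flip p = 0.00146, adjusted p = 0.00879). Vehicle 2 needed 1324 mouse genes to reach 50% of its mouse counts, against 872, 1051 and 865 in vehicle 1, 3 and 4, and its human counts 1068 genes against 1054, 1082 and 1143.

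At least 1 CPM was found for 13216 human genes in all 4 tumours and for 14847 in any, and for 12955 and 16416 mouse genes. Vehicle 2 had the deepest mouse data, with 15972 mouse genes at 10 counts or more, against 13130, 14033 and 13270 in vehicle 1, 3 and 4. At the depth of vehicle 1, the lowest with 5.21 M mouse counts, 14039 genes would be expected in vehicle 2, 13678 in vehicle 3 and 13253 in vehicle 4. Vehicle 2 thus had the most detected mouse genes at its own and at the common depth, with a smaller lead at the latter. Human genes showed 15821 to 16030 detected genes at a common depth of 23.7 M counts.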

How the data were processed

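Paired-end mRNA libraries, 1 per tumour, were made with a TruSeq kit, per the labels' protocols. The authors deposited whole-number counts per Ensembl gene ID in 2 matrices, human and mouse, over the same 16 libraries. Per the submitters' processing notes, Trimmomatic 0.36, HISAT2 2.04, Picard, StringTie and edgeR were used, with the builds hg38 and mm10, in roles not described. The division of reads between species, use of strand and annotation: not given in the sources used here. No column was left unused.

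CPM was computed within each matrix on its total. Common and gene-level BCV were estimated with edgeR 4.0.16 (R 4.3.3) in the vehicle libraries alone, and common BCV likewise within each treated group, with a single mean, TMM factors and the default low-count filter (minimum count of 10), after tests on simulated data. Log2 differences used a pseudocount of 1. Expected numbers of genes at a common depth are binomial expectations. Intervals and limits of counts cover counting error only, and 1 library per mouse does not separate mice from library preparation.

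The planned comparisons of human with mouse genes of the same symbol, and of 34 gene lists, needed symbols and were not run. The rule for named genes took the 20 highest and the 15 most variable genes of each matrix (these at a mean of at least 50 CPM), list members, and the pairs with the largest differences. Without symbols it allows 2 IDs each way. The members and lists were chosen with earlier results of these data known. Counts of genes by which 1 tumour stood apart, the ranges and the breadth of each compartment were chosen after the data were seen.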

Additional observations from a re-analysis of the deposited data

Results flagged for a closer look

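Of 49 values checked over the 4 vehicle tumours (depths, mouse share, breadth measures and the CPM of the 20 highest genes of each matrix), 6 had 1 tumour far from the other 3. Chance flags about 1 in 20. Vehicle 2 stood apart with a mouse total of 14.4 M counts. It was also the highest, with 20936 CPM, for the human gene ranked 4, which was listed at 0 in the other 3. How reads were assigned to that gene was not tested. Vehicle 2 was the lowest, with 1852 CPM, for the mouse gene ranked 18. Vehicle 4 was the highest, with 12677 CPM, for the mouse gene ranked 2. It was the lowest for the mouse gene ranked 4, with 5319 CPM, and for the mouse gene ranked 16, with 333 CPM. The gene ranked 4 was nevertheless even, with a ratio of highest to lowest tumour of 1.25.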

How the results depend on the processing

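No paired analysis was possible because no 2 treatment groups were compared, so replicate numbers had nothing to pair. The human and mouse percentages of 1 tumour were compared within that tumour. The comparisons of gene pairs by symbol, of sides and of gene lists were not run, with all their alternatives, for want of symbols.

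The BCV of human and mouse genes was 0.273 and 0.548 with no filter on low counts, and 0.197 and 0.432 for genes with a mean of at least 10 CPM. Without TMM factors it was 0.213 and 0.389. With 1 tumour left out it ran from 0.206 to 0.222 and from 0.306 to 0.420. The mouse value was above the human one in each of these settings. The alternatives below were chosen after seeing the data. The 19 human genes that stood at least 4-fold above in 1 tumour were 33 at a minimum of 5 CPM, 12 at 20 CPM, 98 at 2-fold, 9 at 8-fold, and 27 to 34 with 1 tumour left out (33 without vehicle 1, 29 without vehicle 2, 34 without vehicle 3). For vehicle 1, the 22 mouse genes became 35 at 5 CPM, 89 at 2-fold and 31 to 95 with 1 tumour left out (95 without vehicle 3). For vehicle 2, 336 became 960 at 2-fold, 184 at 8-fold and 363 to 496. For vehicle 3, 42 became 23 at 20 CPM, 142 at 2-fold, 6 at 8-fold and 52 to 155 (155 without vehicle 2, 83 without vehicle 1). For vehicle 4, 16 became 9 at 20 CPM, 229 at 2-fold, 5 at 8-fold and 23 to 36 (34 without vehicle 1, 36 without vehicle 3). Fewer tumours to exceed make these counts larger by construction, and vehicle 2 had the most mouse genes in each of these settings that included it. The share of genes spanning 4-fold was 3.53% of human and 20.8% of mouse genes at a mean of 1 CPM. At a mean of 100 CPM it was 0.499% of human and 10.2% of mouse genes. With 1 tumour left out, which can only narrow the range of a gene, it was 0.832% (without vehicle 3) to 0.980% and 4.58% (without vehicle 2) to 10.3%. The difference in counts held by the 100 highest genes ran from 0.632 points (without vehicle 4) to 3.92 points (without vehicle 2).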
